A study of Mus musculus with 25 samples.

Results

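Hearts of mice labelled MCT1KO were compared with wild-type (WT) hearts in animals that carried no pump. The comparison takes the 3 libraries whose titles read MCT1KO and no pump against the 4 whose titles read WT and no pump, 7 of the 25 libraries of the series. The other 18 hearts came from animals of the same labels fitted with a pump that delivered either saline or Ang/PE, a pair of agonists that provoke growth of the heart muscle (6 WT and 4 MCT1KO with saline, 3 WT and 5 MCT1KO with Ang/PE). They are used here for comparison and for the estimate of spread. Each library holds total RNA of a heart after depletion of ribosomal RNA, prepared with a kit that keeps the strand. Age, sex, strain, time of collection, the allele behind the knockout label and the cells in which it acts are not given in the sources used here. Nothing says more about how the hearts of a group relate to each other, so p-values are set against the spread between hearts of a group. That spread was estimated from all 25 hearts in 6 groups, and so rests in part on the 18 pumped hearts.

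MCT1, encoded by Slc16a1, carries lactate, pyruvate and ketone bodies together with a proton across membranes, in either direction. In the heart, lactate taken up from blood is turned into pyruvate by lactate dehydrogenase, and pyruvate enters mitochondria through the MPC1 and MPC2 carrier to feed the pyruvate dehydrogenase complex. The healthy heart draws most of its energy from fatty acids, with lactate, glucose and ketone bodies as the other fuels. The series asks how the handling of lactate bears on hypertrophy, and the hearts without a pump give the difference between the labels before any such stimulus.

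The 7 libraries, written WT 1 to 4 and MCT1KO 1 to 3 after the group and replicate number of their labels, were sequenced to similar depth. Total counts were 24.88, 19.53, 19.22 and 18.38 in units of 10⁶ in WT 1 to 4 (20.5 ± 2.96, SD, n = 4) and 19.92, 18.89 and 22.61 in MCT1KO 1 to 3 (20.5 ± 1.92, SD, n = 3). Mitochondrially encoded genes took 14.8% to 18.4% of counts in WT and 12.8% to 18.2% in hearts labelled MCT1KO. Of the other counts, genes whose longest transcript is under 1 kb took 4.73%, 5.11%, 5.91% and 5.60% in WT and 4.87%, 3.83% and 3.74% in the hearts labelled MCT1KO. MCT1KO 2 and 3 thus lay below every WT heart and MCT1KO 1 within the WT range. Xist, the RNA that silences an X chromosome in females, stood at 689 and 657 CPM (counts per 10⁶ counts of a TMM-scaled library) in WT 2 and 3 and at no more than 0.536 CPM in the other 5 hearts, so the 3 hearts labelled MCT1KO held none with Xist. Ddx3y, a Y-linked gene, was at 0 in those 2 WT hearts and at 69.9 to 101 CPM in the rest. Where a result moves with these differences the values are given beside it.

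Slc16a1 (ENSMUSG00000032902) showed no loss of RNA. Its level was 233, 222, 150.3 and 204 CPM in WT 1 to 4 and 209.8, 223 and 167 CPM in MCT1KO 1 to 3, and the groups overlapped. The log2 fold change, labelled MCT1KO minus WT here and throughout, was −0.02 (SE 0.154), with an adjusted p of 0.976 in edgeR's quasi-likelihood test with Benjamini-Hochberg adjustment. Counts over the whole gene do not show whether the transcript still encodes a working transporter, and every direction below rests on the label. In the pumped hearts, none of which is among the hearts compared without a pump, the corresponding value was −0.25.

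The other genes of lactate and pyruvate handling were close to the WT level. Of 25 genes on this list, 1 was higher and 0 were lower at an unadjusted p below 0.05. Over all 17682 tested genes 5.46% were higher and 6.74% were lower by the same rule. The median log2 fold change of the list was −0.08, against −0.003 over all tested genes. The higher one was Pdpr, the regulatory subunit of pyruvate dehydrogenase phosphatase, at 173, 132, 103 and 135 CPM in WT 1 to 4 and 149, 198 and 171 CPM in MCT1KO 1 to 3. MCT1KO 1 and 3 lay inside the WT range, and the log2 fold change of 0.35 (SE 0.15) had an edgeR adjusted p of 0.366. Bsg, the chaperone that brings MCT1 to the membrane, was at 892, 771, 714 and 723 CPM in WT 1 to 4 and 711, 755 and 682 CPM in MCT1KO 1 to 3, with a log2 fold change of −0.12 (SE 0.183). Slc16a7, which encodes the related transporter MCT2, was at 20.2, 23.1, 16.2 and 16.8 CPM in WT 1 to 4 and 17.5, 17.2 and 13.8 CPM in MCT1KO 1 to 3. Its log2 fold change was −0.24 (SE 0.218), and MCT1KO 1 and 2 lay inside the WT range.

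Of the enzymes and carriers that lead from lactate to acetyl-CoA, Ldhb, the heart form of lactate dehydrogenase, was at 1310, 1026, 917 and 1120 CPM in WT 1 to 4 and 1057, 1086 and 921 CPM in MCT1KO 1 to 3. Ldha stood at 406, 423, 338 and 384 CPM in WT 1 to 4 and 369, 390.4 and 345 CPM in MCT1KO 1 to 3. Both groups overlapped for either gene, with log2 fold changes of −0.10 (SE 0.199) and −0.08 (SE 0.117). Mpc1, a subunit of the mitochondrial pyruvate carrier, was at 191, 176, 180.4 and 206 CPM in WT 1 to 4 and 174, 148 and 141 CPM in MCT1KO 1 to 3. It was the 1 gene of the list whose groups did not overlap with the lower values in MCT1KO, at −0.29 (SE 0.168) and an edgeR adjusted p of 0.498. Dld, the dihydrolipoamide dehydrogenase subunit that several dehydrogenase complexes share, had a log2 fold change of −0.28 (SE 0.155) with overlapping groups. Pdk4, the kinase that switches pyruvate dehydrogenase off during fasting, had the largest SE of the list, 0.563, and stood at 1110, 512, 856 and 751 CPM in WT 1 to 4 and 511, 788 and 201 CPM in MCT1KO 1 to 3. MCT1KO 3 was the lowest of the 7 hearts, and the groups overlapped.

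Across all genes, 0 of 17682 passed an adjusted p of 0.05 in edgeR (0.0%), and the smallest adjusted p was 0.227. At an unadjusted p below 0.05 there were 2157 genes (12.2%), 965 higher and 1192 lower in the hearts labelled MCT1KO. Their differences were small: the median absolute log2 fold change was 0.37 among the higher and 0.42 among the lower genes, and 90 and 116 of them exceeded 2-fold. CPM of the groups did not overlap in 897 genes with higher (5.07%) and 1144 with lower (6.47%) values in MCT1KO. DESeq2, run as an alternative test, called 31 of 14747 genes at an adjusted p below 0.05 (0.21%), 18 higher (0.122%) and 13 lower (0.0882%). It called 24 of 14912 (0.161%) when run on the genes that passed the edgeR filter. The 13 lower genes included Xist, with a log2 fold change of −11.0 and a DESeq2 adjusted p of 0.00517. As given above, Xist was high in some of the WT hearts only. The 18 higher genes included 2610307P16Rik, Gm38292 and C130089K02Rik, with DESeq2 adjusted p of 0.00517, 0.00676 and 0.0171. The genes described next were picked by rank on this very comparison, among genes whose groups do not overlap. Their separation was thus fixed in advance, their p-values order them and their values describe them.

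Rasgrf2, an exchange factor that activates Ras and Rac, had the smallest p. Its level was 18, 17.5, 18.3 and 17.7 CPM in WT 1 to 4 and 29.1, 29.6 and 28.8 CPM in MCT1KO 1 to 3. The spread within each group was far smaller than the gap between them, and the log2 fold change was 0.71 (SE 0.133) with an adjusted p of 0.227 in edgeR and 0.00379 in DESeq2. Sema6a, a transmembrane semaphorin, was at 27.4, 27.8, 20.8 and 32.1 CPM in WT 1 to 4 and 41.7, 53.7 and 50.5 CPM in MCT1KO 1 to 3. All 3 hearts labelled MCT1KO lay above all 4 WT hearts, as the naming rule required, and the log2 fold change was 0.85 (SE 0.186). Fryl, a large protein related to Furry, was at 98.5, 94.4, 81.5 and 86.2 CPM in WT 1 to 4 and 110.5, 138 and 145 CPM in MCT1KO 1 to 3. MCT1KO 1 was the nearest to the WT range.

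Of the other genes with higher values, Hdac4, a histone deacetylase that holds the muscle factor MEF2 in check, was at 67.4, 57.7, 55.9 and 67.4 CPM in WT 1 to 4 and 70.8, 115 and 102 CPM in MCT1KO 1 to 3 and had a log2 fold change of 0.63 (SE 0.151). Replicate 1 of the hearts labelled MCT1KO was close to the WT range and the other 2 were well above it. Tet3, an enzyme that oxidises 5-methylcytosine, was at 47.4, 55.0, 54.5 and 55.7 CPM in WT 1 to 4 and 60.7, 82.7 and 77.4 CPM in MCT1KO 1 to 3 and had a log2 fold change of 0.47 (SE 0.117). Cecr2, a bromodomain protein of chromatin remodelling complexes, was at 39.4, 30.5, 28.5 and 38.2 CPM in WT 1 to 4 and 46.6, 62.1 and 48.5 CPM in MCT1KO 1 to 3 and had a log2 fold change of 0.62 (SE 0.146). Syne1 encodes nesprin-1, which ties the nucleus to the cytoskeleton, and was at 380.4, 419.8, 363 and 355 CPM in WT 1 to 4 and 486, 506 and 504 CPM in MCT1KO 1 to 3. Efnb2, the arterial ligand ephrin-B2, was at 24.8, 28.6, 25.2 and 31.5 CPM in WT 1 to 4 and 36.8, 39.1 and 41.0 CPM in MCT1KO 1 to 3. Xpo6, which exports actin from the nucleus, had the smallest difference of the 10, with a log2 fold change of 0.27 (SE 0.0679). In the plot of ranked genes by heart, the 3 hearts labelled MCT1KO stand apart from WT in each of these genes, which the naming rule fixed in advance. MCT1KO 1 is nearest to WT in most of them.

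**Figure D1:**
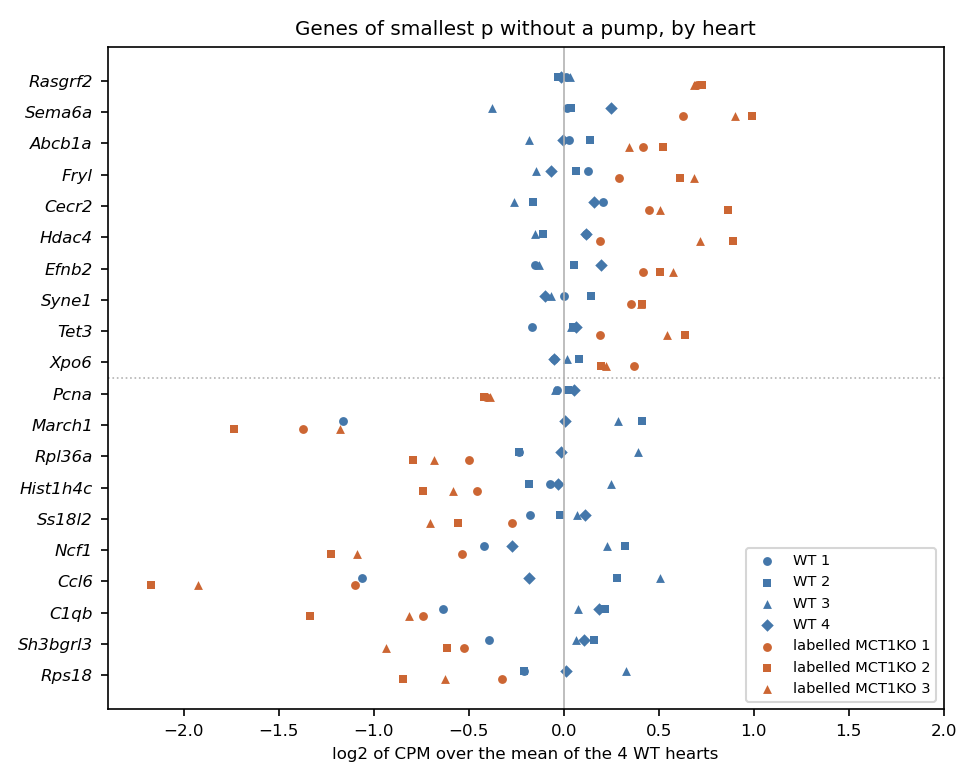
Level of the 10 genes of smallest p with higher and the 10 with lower CPM in the hearts labelled MCT1KO. The x axis is the log2 of each heart's CPM over the mean of the 4 WT hearts, each point is a heart (blue WT, orange labelled MCT1KO), and the genes were ranked on these same hearts among those whose groups do not overlap; Rasgrf2 and Pcna show the tightest groups.

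Among the genes with lower values, Pcna, the sliding clamp of DNA replication, had the tightest groups, at 27.4, 28.6, 27.2 and 29.2 CPM in WT 1 to 4 and 21.2, 21 and 21.5 CPM in MCT1KO 1 to 3. The log2 fold change was −0.40 (SE 0.0935), with an edgeR adjusted p of 0.227. March1, a ubiquitin ligase that removes MHC class II from the surface of antigen-presenting cells, was at 2.44, 7.26, 6.64 and 5.47 CPM in WT 1 to 4 and 2.11, 1.64 and 2.41 CPM in MCT1KO 1 to 3. WT 1 lay just above the hearts labelled MCT1KO and the other 3 WT hearts were more than 2-fold above them. Hist1h4c, a histone H4 gene with near-identical copies that can share its reads, had a log2 fold change of −0.59 (SE 0.141). Ss18l2 and Sh3bgrl3 had log2 fold changes of −0.50 (SE 0.123) and −0.68 (SE 0.174). The remaining genes of the 10 encode ribosomal proteins (Rpl36a and Rps18) or are genes of macrophages and other myeloid cells (Ccl6, C1qb and Ncf1), and both kinds are described below.

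Of the non-overlapping genes with higher values that the naming rule admits (a mean log2 CPM above 1 and no predicted model), Egr1 had the largest fold change. This immediate early transcription factor was at 16.3, 5.94, 9.89 and 9.44 CPM in WT 1 to 4 and 31.0, 31.4 and 34.1 CPM in MCT1KO 1 to 3. All 3 hearts labelled MCT1KO were above all WT hearts, but the log2 fold change of 1.63 (SE 0.92) had an unadjusted p of 0.0928 and an edgeR adjusted p of 0.488. Kcnc1, a voltage-gated potassium channel, followed at 1.53, 1.41, 2.50 and 2.25 CPM in WT 1 to 4 and 2.94, 3.57 and 7.55 CPM in MCT1KO 1 to 3. Its log2 fold change was 1.29 (SE 0.37), and MCT1KO 3 was the highest. Egf, the epidermal growth factor precursor, was at 8.71, 7.75, 5.84 and 11.4 CPM in WT 1 to 4 and 12.5, 25.8 and 16.2 CPM in MCT1KO 1 to 3 and had a log2 fold change of 1.11 (SE 0.293). Pde11a, a cyclic nucleotide phosphodiesterase, and Prdm1, the transcription factor BLIMP1, had values of 1.11 (SE 0.487) and 1.05 (SE 0.316).

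Genes for cytosolic ribosomal proteins had lower values as a group in the hearts labelled MCT1KO. Of 82 genes on the list 80 were tested, and all 80 had a negative log2 fold change, against 8917 of all 17682 tested genes. Of the 80, 75 were lower at an unadjusted p below 0.05, where 6.74% of all tested genes were. In 53 the groups did not overlap, against 6.47% of all tested genes with lower values. The median log2 fold change was −0.48, and no member passed adjustment over all genes. Expressed by heart, the median log2 ratio of the members to the WT mean was −0.22, −0.16, 0.29 and 0.03 in WT 1 to 4 and −0.28, −0.62 and −0.54 in MCT1KO 1 to 3. MCT1KO 2 and 3 were well below every WT heart, while MCT1KO 1 was only just below WT 1.

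Rplp0, a stalk protein of the large subunit and the member of highest CPM, was at 562, 572, 648 and 596 CPM in WT 1 to 4 and 502, 407 and 396 CPM in MCT1KO 1 to 3. No heart overlapped, and the log2 fold change was −0.45 (SE 0.143) with an edgeR adjusted p of 0.252. Rps2, of the small subunit, was at 499, 512, 549 and 527 CPM in WT 1 to 4 and 470.3, 359.9 and 375 CPM in MCT1KO 1 to 3, and Rpl4, of the large subunit, at 340.2, 332, 454 and 369.8 CPM in WT 1 to 4 and 313, 270.4 and 305 CPM in MCT1KO 1 to 3. The gap to WT was again narrow for MCT1KO 1 and wide for MCT1KO 2 and 3, except that for Rpl4 replicates 1 and 3 were alike. Rpl36a had the smallest p, at 33.8, 33.9, 52.2 and 39.4 CPM in WT 1 to 4 and 28.2, 23 and 24.8 CPM in MCT1KO 1 to 3, with a log2 fold change of −0.65 (SE 0.153) and an adjusted p of 0.227 in edgeR and 0.0417 in DESeq2. Rps18 was at 109, 109, 158 and 127 CPM in WT 1 to 4 and 100.3, 70.0 and 81.6 CPM in MCT1KO 1 to 3 and had a log2 fold change of −0.58 (SE 0.149). The 5 members that were not lower at an unadjusted p below 0.05 were Rpl22, Rpl34, Rpl32l, Rps4l and Rpl3l. Rpl3l, the variant of Rpl3 made in heart and skeletal muscle, was at 201, 168, 149 and 182 CPM in WT 1 to 4 and 167, 199.6 and 156 CPM in MCT1KO 1 to 3 and had a log2 fold change of −0.01 (SE 0.355). Ribosomal protein genes have many processed copies in the genome, and how the authors treated reads that match several places is not given in the sources used here.

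Messenger RNAs of ribosomal proteins commonly begin with a run of pyrimidines at the cap, a feature known for coupling their translation to growth signals. To show it for genes that carry the ribosomal result, the start windows of the 5 members of smallest p that had an entry are given from 10 bases before to 20 from the annotated start, 5′ to 3′ on the gene's strand, from RefSeq on GRCm38.p6. Capitals mark the longest run of C and T that overlaps the 11 bases centred on the start. The windows are chrX:134585644-134585673 on the plus strand for Rpl36a, chr17:33955646-33955675 on the minus strand for Rps18, chr15:5116603-5116632 on the plus strand for Rpl37, chrX:37085203-37085232 on the minus strand for Rpl39 and chr7:141447641-141447670 on the plus strand for Rplp2.
Rpl36a: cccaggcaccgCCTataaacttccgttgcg
Rps18: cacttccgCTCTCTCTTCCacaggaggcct
Rpl37: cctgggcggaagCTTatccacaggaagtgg
Rpl39: gctccgCCTCTagcgacttcttctaatcgc
Rplp2: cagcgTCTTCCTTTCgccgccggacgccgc
The run is 11 and 10 bases long in Rps18 and Rplp2, and 3, 3 and 5 bases in Rpl36a, Rpl37 and Rpl39, so the 5 genes do not share it at the annotated start. A run of at least 8 bases was found in 21 of 58 ribosomal protein genes with an entry (36.2%), in 1162 of 11415 tested genes (10.2%) and in 8 of 73 nuclear respiratory chain genes (11%). A match describes these letters only. The annotated start may not be the one used in heart.

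Nuclear genes of the respiratory chain and ATP synthase leaned the same way, by less. Of 96 genes on the list, which includes assembly factors, 90 were tested. A negative log2 fold change was found in 84 of these, against 8917 of all 17682 tested genes. Of the 90, 32 were lower and 0 higher at an unadjusted p below 0.05, against 6.74% lower over all tested genes. The groups did not overlap in 45 with lower values, against 6.47% of all tested genes, and the median was −0.30. The list holds no complex II genes, and each complex on it had members among the lower genes. Lower were 16 of 46 genes of complex I and 4 of 11 of complex III. For complex IV it was 7 of 16 and for ATP synthase 5 of 17. The medians were −0.26, −0.31, −0.33 and −0.30 in this order. Cox7a2, a small subunit of cytochrome oxidase, had the smallest p, at 249, 271, 291 and 292 CPM in WT 1 to 4 and 238, 159 and 146 CPM in MCT1KO 1 to 3. MCT1KO 1 lay just under the WT range and the other 2 far under it, and the log2 fold change was −0.61 (SE 0.181) with an edgeR adjusted p of 0.227. Cox8b, another small subunit of the same enzyme, was at 345, 346, 412 and 401 CPM in WT 1 to 4 and 313, 244 and 225 CPM in MCT1KO 1 to 3.

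Values of single subunits varied. Atp5b, the catalytic β subunit of ATP synthase, was at 4865, 3820, 3376 and 3807 CPM in WT 1 to 4 and 3903, 4159 and 3546 CPM in MCT1KO 1 to 3, and Atp5a1, its α subunit, at 3749, 3041, 2530 and 2898 CPM in WT 1 to 4 and 3049, 3378 and 2930 CPM in MCT1KO 1 to 3. The groups overlapped for both, with log2 fold changes of −0.04 (SE 0.146) and 0.03 (SE 0.163). Uqcrc1, a core subunit of complex III, was at 1163, 869.6, 732 and 920.3 CPM in WT 1 to 4 and 927, 1012 and 868 CPM in MCT1KO 1 to 3 and had a log2 fold change of 0.02 (SE 0.18). The 13 mitochondrially encoded subunits had a median of −0.09. At an unadjusted p below 0.05, where 6.74% of all tested genes were lower, 1 of them, mt-Nd3, was lower. It stood at 59.9, 25.9, 33.7 and 41.8 CPM in WT 1 to 4 and 33.0, 4.92 and 18.4 CPM in MCT1KO 1 to 3, with overlapping groups. The abundant mt-Co1 was at 72450, 53385, 62610 and 71492 CPM in WT 1 to 4 and 63867, 69317 and 49703 CPM in MCT1KO 1 to 3, and its log2 fold change was −0.09 (SE 0.242).

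The respiratory chain count rested on 1 heart more than on any other. Without MCT1KO 3, 3 genes of the list were lower in place of 32, without MCT1KO 2 there were 19, and without WT 4 there were 21. With Xist as a covariate there were 10, while among hearts without Xist alone there were 62. For the ribosomal list, leaving out MCT1KO 3, leaving out MCT1KO 2, the Xist covariate and the hearts without Xist gave 62, 65, 64 and 68 lower genes in place of 75, and the lowest count when leaving out a heart was 59, without WT 3.

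Both lists hold many short transcripts, and fold changes followed transcript length over all genes. Among 12801 genes with a mean log2 CPM above 1 over these hearts and a known length, the rank correlation between the log2 fold change and the length of the longest annotated transcript was 0.357. This is a correlation across genes of the same libraries, and genes are not independent replicates. The median log2 fold change was −0.27 in 612 genes under 1 kb, −0.12 from 1 to 2 kb, −0.04 from 2 to 3 kb, 0.02 from 3 to 5 kb, 0.08 from 5 to 8 kb and 0.14 in 759 genes over 8 kb. Of the genes under 1 kb, 11 were higher and 196 lower at an unadjusted p below 0.05. Of those over 8 kb, 177 were higher and 10 lower. The same correlation was 0.115 between the genotypes with saline and 0.101 with Ang/PE. With GC content it was 0.100 without a pump, −0.226 with saline and 0.287 with Ang/PE.

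By heart, the median log2 ratio to the WT mean in genes under 1 kb was −0.07, −0.08, 0.07 and 0.04 in WT 1 to 4 and −0.14, −0.30 and −0.39 in MCT1KO 1 to 3. In genes over 8 kb it was 0.05, −0.001, −0.03 and −0.05 in WT and 0.06, 0.15 and 0.17 in MCT1KO. MCT1KO 2 and 3 thus had the steepest slope with length, and MCT1KO 1 was nearer to WT 1. The labels give no RNA integrity value. Length as a property of the libraries and length as a property of the genes that differ between hearts cannot be told apart.

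**Figure D2:**
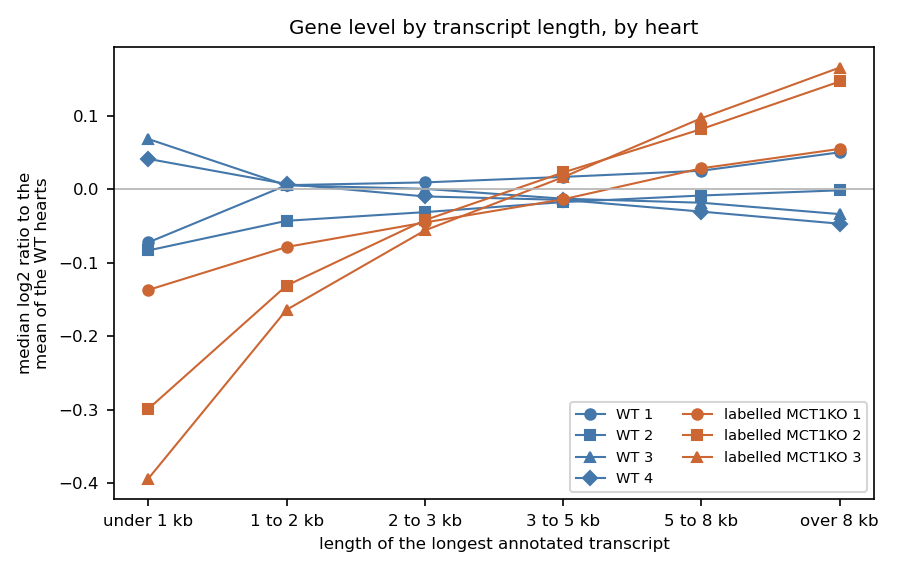
Median gene level by transcript length in each heart. The x axis groups 12801 genes by the length of the longest annotated transcript, the y axis is the median log2 ratio of CPM to the mean of the 4 WT hearts, and each line is a heart; MCT1KO 2 and 3 run from −0.30 and −0.39 under 1 kb to 0.15 and 0.17 over 8 kb.

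Within a length class the ribosomal genes were still lower than other genes. Under 1 kb the median log2 fold change was −0.51 in 34 ribosomal genes and −0.26 in 578 others. From 1 to 2 kb it was −0.45 in 31 and −0.12 in 1957 others, and from 2 to 3 kb −0.48 in 9 and −0.04 in 2615 others. For the respiratory chain the distance was smaller, with −0.32 in 43 genes against −0.26 in 569 others under 1 kb and −0.22 in 27 against −0.12 in 1961 from 1 to 2 kb. It did not close in longer genes. From 2 to 3 kb the median was −0.18 in 10 respiratory chain genes against −0.04 in 2614 others. From 3 to 5 kb it was −0.36 in 8 against 0.02 in 4535 others, and −0.51 in 3 ribosomal genes. When an offset for length and GC content was fitted to each library, 58 ribosomal genes were lower at an unadjusted p below 0.05 with a median of −0.32. In the same fit 13 respiratory chain genes were lower with a median of −0.12, and the median of the mitochondrially encoded genes turned positive, at 0.26.

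**Figure D3:**
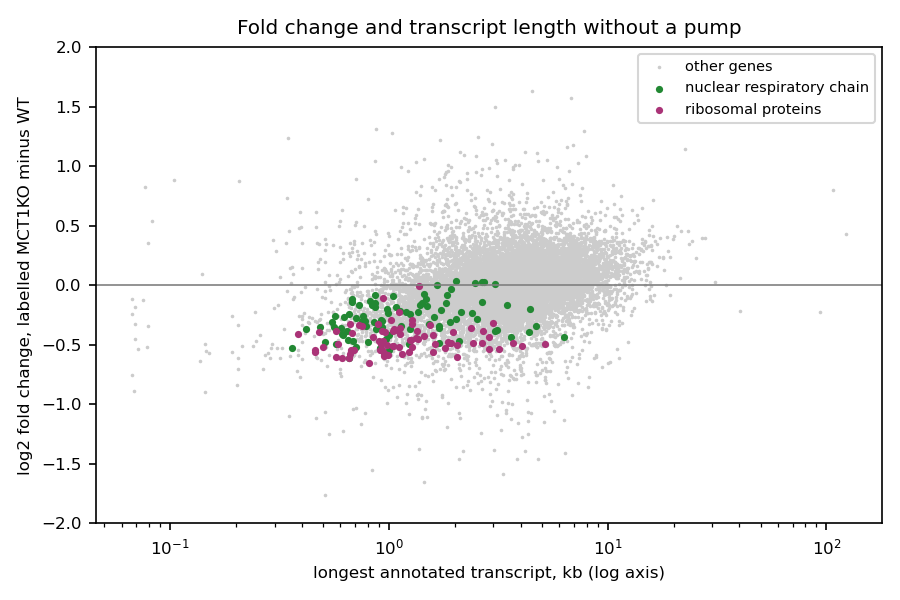
Log2 fold change, labelled MCT1KO minus WT without a pump, against the length of the longest annotated transcript in kb on a log axis. Each grey point is a gene of the 12801 and the coloured points are nuclear respiratory chain genes (green) and ribosomal protein genes (purple); 1 gene lies outside the y axis. Most ribosomal genes lie below the middle of the genes of like length, and respiratory chain genes under 1 kb lie close to it, with a median of −0.32 against −0.26 in the others.

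Some long transcripts of muscle were among the genes with higher values. Ttn encodes titin, the giant spring of the sarcomere, and was at 50659, 39479, 31186 and 33927 CPM in WT 1 to 4 and 44750, 76848 and 80715 CPM in MCT1KO 1 to 3. MCT1KO 2 and 3 were above every WT heart and MCT1KO 1 was inside the WT range. The log2 fold change was 0.80 (SE 0.222), with an adjusted p of 0.227 in edgeR and 0.0493 in DESeq2. Cacna1c, the pore of the L-type calcium channel, was at 674, 594, 506 and 495 CPM in WT 1 to 4 and 663, 892 and 883 CPM in MCT1KO 1 to 3, with a log2 fold change of 0.52 (SE 0.187). In both the groups overlapped through MCT1KO 1.

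The rest of the contractile and calcium-handling genes differed little. Of 15 sarcomere genes 1, Ttn, was higher and 1, the Z-disc gene Myoz2, was lower at an unadjusted p below 0.05, with a list median of 0.02. By the same rule 5.46% of all tested genes were higher and 6.74% lower. Myh6, the adult α myosin heavy chain of mouse ventricle, was at 28410, 21251, 17842 and 17803 CPM in WT 1 to 4 and 20871, 30154 and 28472 CPM in MCT1KO 1 to 3, and its log2 fold change was 0.31 (SE 0.199). Tnnt2, cardiac troponin T, was at 3890, 3033, 3252 and 3194 CPM in WT 1 to 4 and 3555, 3722 and 3477 CPM in MCT1KO 1 to 3. The groups overlapped for both. Of 13 calcium genes, Cacna1c was the 1 that was higher and 0 were lower. Ryr2, the calcium release channel, was at 5383, 4993, 3582 and 3818 CPM in WT 1 to 4 and 4732, 6389 and 5864 CPM in MCT1KO 1 to 3, and Atp2a2, the SERCA pump that refills the store, at 18532, 14555, 11160 and 12893 CPM in WT 1 to 4 and 14529, 18054 and 15279 CPM in MCT1KO 1 to 3, each with overlapping groups. Pln, phospholamban, the brake on that pump, had a log2 fold change of −0.10 (SE 0.226).

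Genes of the fetal and stress programme were uneven among the hearts labelled MCT1KO. Of 8 genes on the list 0 were higher and 0 lower at an unadjusted p below 0.05, against 5.46% and 6.74% of all tested genes. The median log2 fold change was 0.53. That median rested on MCT1KO 3 and was −0.03 without it. Nppa, atrial natriuretic peptide, was at 89.3, 72.7, 130.5 and 58.6 CPM in WT 1 to 4 and 60.9, 20.4 and 462 CPM in MCT1KO 1 to 3. Myh7, the β myosin heavy chain of the fetal and loaded ventricle, was at 352, 172, 386 and 242 CPM in WT 1 to 4 and 307, 446 and 798 CPM in MCT1KO 1 to 3, and Acta1, skeletal α-actin, at 155, 84.5, 196 and 116 CPM in WT 1 to 4 and 135, 143 and 583 CPM in MCT1KO 1 to 3. MCT1KO 3 was the highest heart in each of the 3 genes, while MCT1KO 1 lay inside the WT range. Nppb, brain natriuretic peptide, went the other way, at 290, 256, 541 and 198 CPM in WT 1 to 4 and 249.8, 45.3 and 162 CPM in MCT1KO 1 to 3, and MCT1KO 2 was the lowest. Ankrd1, a stress-responsive ankyrin-repeat protein, was the 1 gene of the list whose groups did not overlap, at 554, 267, 577 and 491 CPM in WT 1 to 4 and 607, 636 and 1049 CPM in MCT1KO 1 to 3, with a log2 fold change of 0.69 (SE 0.541) and an edgeR adjusted p of 0.648.

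Macrophage genes had lower values in the hearts labelled MCT1KO than in WT 2, 3 and 4, but not always than in WT 1. Resident macrophages of the heart express the complement C1q genes, the scavenger receptor Cd163 and the growth factor receptor Csf1r. Of 10 leukocyte markers 5 were lower at an unadjusted p below 0.05 (Cd68, Adgre1, Csf1r, C1qa and Lyz2) and 1, the B cell gene Cd79a, was higher at a level under 1 CPM. By the same rule 6.74% of all tested genes were lower and 5.46% higher. The list median was −0.55. The summed level of the 10 markers was 217, 378, 377 and 459.5 CPM in WT 1 to 4 and 249, 169 and 232 CPM in MCT1KO 1 to 3, so WT 1 lay among the hearts labelled MCT1KO. Fewer cells of a type and less RNA per cell cannot be told apart in RNA of whole hearts.

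C1qa, a chain of complement C1q, was at 28.3, 49.0, 47.5 and 46.9 CPM in WT 1 to 4 and 28.9, 18 and 24.2 CPM in MCT1KO 1 to 3, and its log2 fold change was −0.86 (SE 0.24) with an edgeR adjusted p of 0.227. C1qb, another chain, was at 31.2, 56.4, 51.1 and 55.1 CPM in WT 1 to 4 and 29.0, 19.2 and 27.6 CPM in MCT1KO 1 to 3. Its groups did not overlap, but WT 1 was only just above MCT1KO 1, and the log2 fold change was −0.94 (SE 0.235) with an adjusted p of 0.227 in edgeR and 0.0471 in DESeq2. Cd163 was at 29.1, 56.5, 63.9 and 60.9 CPM in WT 1 to 4 and 30.9, 23.3 and 20.6 CPM in MCT1KO 1 to 3, with a log2 fold change of −1.08 (SE 0.262) and MCT1KO 1 above WT 1. Ccl6, a chemokine of myeloid cells, was at 8.48, 21.5, 25.1 and 15.6 CPM in WT 1 to 4 and 8.24, 3.92 and 4.65 CPM in MCT1KO 1 to 3, with a log2 fold change of −1.65 (SE 0.407). Ncf1, a subunit of the phagocyte NADPH oxidase, was at 7.17, 12, 11.2 and 7.94 CPM in WT 1 to 4 and 6.62, 4.10 and 4.51 CPM in MCT1KO 1 to 3, with a log2 fold change of −0.91 (SE 0.228). Ms4a4a and Ms4a6c, membrane proteins of macrophages and monocytes, had log2 fold changes of −1.55 (SE 0.397) and −1.19 (SE 0.351). In every one of these genes WT 2, 3 and 4 were above all hearts labelled MCT1KO. For C1qb, Ccl6, Ncf1, Ms4a4a and Ms4a6c the naming rule, which asks for groups without overlap, fixed this in advance. Ptprc, the pan-leukocyte gene CD45, was at 10.4, 18.2, 15.5 and 23 CPM in WT 1 to 4 and 14.7, 12.4 and 13.1 CPM in MCT1KO 1 to 3 and did not follow, with overlapping groups and a log2 fold change of −0.32 (SE 0.255). The length and GC offsets left the list where it was, with 5 lower genes and a median of −0.59, and the Xist covariate gave 4 and −0.44.

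Markers of other cell types placed the samples as ventricular muscle. The summed level of 6 cardiomyocyte markers was 34676 to 48662 CPM in WT and 38623 to 49230 CPM in hearts labelled MCT1KO, and 0 of the 6 were higher or lower at an unadjusted p below 0.05. Over all tested genes 5.46% were higher and 6.74% lower by this rule, which also gave the marker counts below. The atrial genes Myl7 and Sln reached at most 0.785 and 0.0981 CPM in any of the 7 hearts, and Adipoq, a fat cell gene, at most 0.146 CPM. The whole list of 7 fat cell genes summed to 12.1 to 16.9 CPM in WT and 11.8 to 18.2 CPM in hearts labelled MCT1KO. Of 6 fibroblast markers, 1 (Lum) was lower, and their sum was 2138 to 4422 CPM in WT and 1593 to 3027 CPM in hearts labelled MCT1KO. Of 7 endothelial markers, 1 was higher: Kdr, the VEGF receptor 2, at 219, 202, 148 and 237 CPM in WT 1 to 4 and 272, 265 and 249 CPM in MCT1KO 1 to 3. Its groups did not overlap, and the log2 fold change was 0.38 (SE 0.17) with an edgeR adjusted p of 0.381. Of 7 smooth muscle and pericyte markers, 1 was higher: Pdgfrb, the PDGF receptor β of pericytes, at 98.3, 101, 102 and 103 CPM in WT 1 to 4 and 111, 120.1 and 132 CPM in MCT1KO 1 to 3, a log2 fold change of 0.26 (SE 0.0871) with no overlap. Over all tested genes, 5.07% had no overlap with higher values in MCT1KO. Globin and other red cell genes summed to 747 to 1526 CPM in WT and to 1688, 410.4 and 484 CPM in MCT1KO 1 to 3, so MCT1KO 1 held the most and MCT1KO 2 and 3 the least. Their part in the differences between these 3 hearts was not tested.

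Genes of glucose uptake and glycolysis differed about as often as all tested genes. Of 24 genes 1 was higher and 2 lower at an unadjusted p below 0.05, against 5.46% higher and 6.74% lower over all tested genes. The list median was 0.02. Hk2, the insulin-responsive hexokinase, was at 441, 331, 240.2 and 309.8 CPM in WT 1 to 4 and 368, 518 and 474 CPM in MCT1KO 1 to 3, a log2 fold change of 0.46 (SE 0.207) with WT 1 inside the range of MCT1KO. Pgk1, phosphoglycerate kinase, was at 273, 271, 241 and 261 CPM in WT 1 to 4 and 239, 219 and 204 CPM in MCT1KO 1 to 3, and the groups did not overlap, with a log2 fold change of −0.25 (SE 0.108). Pgam1, phosphoglycerate mutase, had a value of −0.31 (SE 0.152). Slc2a4, the glucose transporter GLUT4, was at 397, 313, 246 and 292 CPM in WT 1 to 4 and 315, 382 and 358 CPM in MCT1KO 1 to 3 and overlapped. The edgeR adjusted p of the 4 genes was at least 0.367.

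Of 30 fatty acid genes 0 were higher and 0 lower at an unadjusted p below 0.05, against 5.46% and 6.74% of all tested genes, and the median was −0.02. Cd36, the main fatty acid transporter of the cell membrane, was at 2087, 2142, 2234 and 2425 CPM in WT 1 to 4 and 2034, 1628 and 1214 CPM in MCT1KO 1 to 3. MCT1KO 1 lay just under the WT range and MCT1KO 3 far under it, and the log2 fold change of −0.45 (SE 0.229) had an edgeR adjusted p of 0.429. Cpt1b, which admits fatty acids into mitochondria, was at 125, 85.4, 77.7 and 94.5 CPM in WT 1 to 4 and 96.2, 120.1 and 106 CPM in MCT1KO 1 to 3, and Acadm, medium-chain acyl-CoA dehydrogenase, at 1066, 846, 799 and 1018 CPM in WT 1 to 4 and 954, 1023 and 668 CPM in MCT1KO 1 to 3, both overlapping. Of 5 ketone body genes 0 were higher or lower. Oxct1, the enzyme that lets the heart burn ketone bodies, which MCT1 also carries, was at 1232, 1004, 869 and 976 CPM in WT 1 to 4 and 1004, 1057 and 1011 CPM in MCT1KO 1 to 3, a log2 fold change of 0.01 (SE 0.18).

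At an unadjusted p below 0.05, 6.74% of all tested genes were lower and 5.46% higher. In the citric acid cycle and the shuttles of reducing equivalents, 1 of 23 genes was lower and 0 were higher. It was Mdh1, the cytosolic malate dehydrogenase of the malate-aspartate shuttle, at 1695, 1665, 1748 and 1831 CPM in WT 1 to 4 and 1552, 1261 and 1149 CPM in MCT1KO 1 to 3. The groups did not overlap, and the log2 fold change was −0.39 (SE 0.169) with an edgeR adjusted p of 0.36. Among 16 regulators of metabolism, Prkaa2, the catalytic α2 subunit of the energy sensor AMPK, was the 1 that was higher, at 275, 192, 149 and 188 CPM in WT 1 to 4 and 224, 259 and 268 CPM in MCT1KO 1 to 3, a log2 fold change of 0.32 (SE 0.141). Ppargc1a, the coactivator that drives mitochondrial genes, was at 263, 191, 139 and 165 CPM in WT 1 to 4 and 193, 149 and 136 CPM in MCT1KO 1 to 3, a log2 fold change of −0.25 (SE 0.225) with overlapping groups. Ppara and Esrra, nuclear receptors of fatty acid and mitochondrial genes, were at −0.05 (SE 0.174) and −0.10 (SE 0.13).

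**Figure D4:**
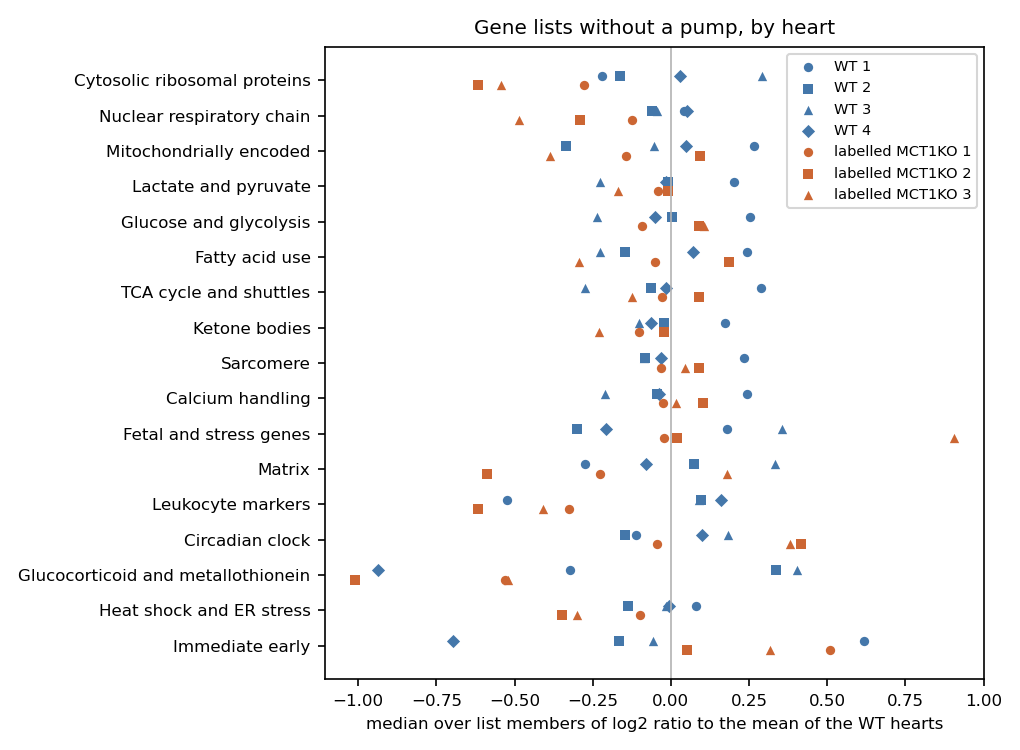
Median of each gene list in each of the 7 hearts. The x axis is the median over the tested members of the log2 ratio of CPM to the mean of the 4 WT hearts, and each point is a heart (blue WT, orange labelled MCT1KO). The ribosomal medians of the hearts labelled MCT1KO, −0.28, −0.62 and −0.54, lie below all 4 WT hearts, while in most metabolic lists WT 1 is highest and the groups overlap.

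Clock genes had values on both sides of the WT mean. Of 18 clock genes 4 were higher and 0 lower at an unadjusted p below 0.05, against 5.46% higher and 6.74% lower over all tested genes. Of the 18, 12 had a positive and 6 a negative log2 fold change, and the median log2 fold change was 0.30. Per3, a period gene, was at 24.4, 37.5, 51.6 and 54.2 CPM in WT 1 to 4 and 48.2, 94.5 and 90.4 CPM in MCT1KO 1 to 3, with a log2 fold change of 0.89 (SE 0.285) and an edgeR adjusted p of 0.259. Dbp, a direct output of the clock that peaks in the day, was at 48.1, 55.3, 98.4 and 94.0 CPM in WT 1 to 4 and 61.1, 154 and 136 CPM in MCT1KO 1 to 3, and Arntl, which encodes BMAL1 and peaks in the opposite phase, at 17.5, 17.5, 10.5 and 11.2 CPM in WT 1 to 4 and 14.2, 6.85 and 7.11 CPM in MCT1KO 1 to 3. MCT1KO 2 and 3 were the highest hearts for Per3 and Dbp and the lowest for Arntl, while MCT1KO 1 was inside the WT range for all 3. Bhlhe40 was the clock gene whose groups did not overlap, at 49.4, 39.0, 54.3 and 56.0 CPM in WT 1 to 4 and 58.7, 79.4 and 77.9 CPM in MCT1KO 1 to 3, a log2 fold change of 0.54 (SE 0.18). The count of 4 higher clock genes became 8 without MCT1KO 1, 2 without MCT1KO 2 and 7 without WT 3. It was 7 with the Xist covariate and 1 among hearts without Xist alone. The hour of collection is not given in the sources used here, so it cannot be told apart from the label.

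Targets of the glucocorticoid receptor and metallothioneins split the WT hearts. All 9 genes of the list had a negative log2 fold change, 4 of them at an unadjusted p below 0.05 (Fkbp5, Tsc22d3, Zbtb16 and Cdkn1a), and the median was −0.63. Of all 17682 tested genes 8917 were negative, and 6.74% were lower at an unadjusted p below 0.05. Fkbp5, a chaperone that dampens the receptor, was at 41.9, 126, 146 and 33.2 CPM in WT 1 to 4 and 40.0, 18.3 and 35.8 CPM in MCT1KO 1 to 3. Zbtb16, a transcription factor induced by the hormone, was at 150.2, 418, 479 and 241 CPM in WT 1 to 4 and 168, 118 and 149 CPM in MCT1KO 1 to 3. WT 2 and 3, the hearts with Xist, were the highest for both. WT 4 lay inside the MCT1KO range for Fkbp5 and WT 1 for Zbtb16. With the Xist covariate 0 of the 9 were lower, without WT 2 also 0, and without WT 3 there was 1. Leaving out MCT1KO 1, 2 or 3 gave 1, 0 and 1.

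All 18 heat shock and endoplasmic reticulum stress genes had a negative log2 fold change, against 8917 of all 17682 tested genes, and their median was −0.21. The groups did not overlap in 5 of the 18, against 6.47% of all tested genes with lower values. Of the 18, 1 was lower at an unadjusted p below 0.05, where 6.74% of all tested genes were lower and 5.46% higher. It was Sdf2l1, a chaperone cofactor, at 4.15, 4.87, 4.20 and 6.06 CPM in WT 1 to 4 and 4.07, 1.76 and 2.99 CPM in MCT1KO 1 to 3. Hsp90aa1, the inducible HSP90, was at 111, 89.2, 115 and 95.8 CPM in WT 1 to 4 and 79.3, 54.1 and 71.4 CPM in MCT1KO 1 to 3, a log2 fold change of −0.59 (SE 0.372) without overlap and with an edgeR adjusted p of 0.542. Of 12 immediate early genes 1, Fosb, was higher, at 1.85, 0.633, 0.699 and 0.322 CPM in WT 1 to 4 and 6.72, 0.937 and 1.12 CPM in MCT1KO 1 to 3, where MCT1KO 1 alone was high. Of 13 interferon-induced genes 1, Ifi27l2a, was lower, at 6.59, 18, 19.6 and 8.90 CPM in WT 1 to 4 and 5.05, 4.22 and 8.94 CPM in MCT1KO 1 to 3, with WT 2 and 3 the highest. Of 11 antioxidant genes 0 were higher or lower. Hmox1, heme oxygenase, was at 8.21, 12.4, 17.1 and 9.06 CPM in WT 1 to 4 and 7.66, 6.62 and 6.57 CPM in MCT1KO 1 to 3, without overlap and with a log2 fold change of −0.75 (SE 0.364). Of 7 tested hypoxia targets 1 was lower, the mitophagy receptor Bnip3, at 138, 183, 161 and 136 CPM in WT 1 to 4 and 129, 112 and 103 CPM in MCT1KO 1 to 3.

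Few matrix genes differed. Of 25 genes 1 was lower at an unadjusted p below 0.05, against 6.74% of all tested genes. It was Lum, the proteoglycan lumican, at 44.8, 81.0, 128 and 58.1 CPM in WT 1 to 4 and 47.7, 35.3 and 54.3 CPM in MCT1KO 1 to 3, with a log2 fold change of −0.77 (SE 0.286). WT 2 and 3, the hearts with Xist, were the highest, and WT 1 lay inside the MCT1KO range. In the alternative fits other than leaving out a heart, the log2 fold change of Lum ran from −0.79 to −0.19. The median of the list was −0.16. It was 0.03 without MCT1KO 2 and −0.43 without MCT1KO 3. Col1a1, the main collagen of scar tissue, was at 153, 199.9, 156 and 174 CPM in WT 1 to 4 and 142, 124 and 208 CPM in MCT1KO 1 to 3, and Postn, a marker of activated fibroblasts, at 27.3, 53.9, 64.9 and 36.8 CPM in WT 1 to 4 and 34.5, 25.7 and 77.4 CPM in MCT1KO 1 to 3. The groups overlapped for each.

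Genes around Slc16a1 on its chromosome differed about as often as all tested genes. The 20 tested genes nearest on each side were taken in the order of the reference gene table. Of these 40, Kcnd3 was higher and Vangl1, Cept1 and Dram2 were lower at an unadjusted p below 0.05, against 5.46% higher and 6.74% lower over all tested genes. The median of the 40 was −0.08. Cept1 and Dram2 are next to each other in that order. Kcnd3, a potassium channel subunit, was at 32.8, 27.6, 22.6 and 24.9 CPM in WT 1 to 4 and 31.9, 37.0 and 31.2 CPM in MCT1KO 1 to 3, overlapping. Cept1, a phospholipid synthesis enzyme, had the largest difference of the lower ones, at 19.9, 23.9, 27.3 and 28.0 CPM in WT 1 to 4 and 21.8, 15.7 and 15.5 CPM in MCT1KO 1 to 3, a log2 fold change of −0.49 (SE 0.159). On the X chromosome, Kdm6a, which escapes silencing, was at 38.2, 65.6, 67.2 and 36.5 CPM in WT 1 to 4 and 36.1, 34.2 and 39.4 CPM in MCT1KO 1 to 3. WT 2 and 3, the hearts with Xist, were the highest, and the other 5 hearts were alike.

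The pumped hearts gave the same genotype contrast in 9 hearts labelled MCT1KO and 9 WT hearts, none of which is among the hearts compared without a pump. The contrast averages the saline and Ang/PE differences. It held 0 genes at an adjusted p below 0.05 in edgeR (0.0%), and 1601 at an unadjusted p below 0.05 (9.05%), 924 higher (5.23%) and 677 lower (3.83%). Of the 965 genes higher without a pump, 576 (59.7%) were also positive in the pumped hearts, against 55.0% of all genes positive without a pump, and 49 were positive with an unadjusted p below 0.05 while 24 were negative. Of the 1192 lower genes, 675 (56.6%) were negative in the pumped hearts, against 49.6% of all genes negative without a pump, and 30 and 32 had an unadjusted p below 0.05 in the same and in the opposite direction.

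The split by treatment was wide. With saline, 40.1% of the higher and 36.3% of the lower genes kept their sign, below the 50.4% and 41.0% of all genes. With Ang/PE, 75.0% and 70.7% kept it, above the 59.4% and 57.6% of all genes. Among the 20 ranked genes, Rasgrf2 had a log2 fold change of −0.03 in the pumped hearts, Sema6a 0.05, Pcna −0.03, C1qb 0.03 and Ccl6 0.06. These values average the 2 treatments, which had opposite signs in each of the 5 genes: with saline and with Ang/PE the log2 fold change was 0.59 and −0.47 for Ccl6, −0.28 and 0.38 for Sema6a, and −0.15 and 0.09 for Rasgrf2. For Pcna it was 0.04 and −0.11, and for C1qb 0.11 and −0.05. Abcb1a and Cecr2 had the opposite sign in pumped hearts to that without a pump, at −0.30 and −0.22.

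The lists differed in how far they kept their direction in the pumped hearts. The ribosomal median was −0.07 in pumped hearts, 0.02 with saline and −0.15 with Ang/PE, and in 56 of the 80 genes the difference between the contrasts had an unadjusted p below 0.05, where 10% of all tested genes did. The leukocyte median was 0.24 in pumped hearts, 0.28 with saline and 0.05 with Ang/PE, and 5 of the 10 markers differed by that rule. The clock median was −0.22 in pumped hearts, 0.05 with saline and −0.35 with Ang/PE, and 9 of 18 genes differed. For the respiratory chain the pumped median was −0.17, nearer to the −0.30 without a pump, and 2 of 90 genes differed. It was −0.22 with saline and −0.105 with Ang/PE. No member of these 4 lists passed adjustment in the test of the difference.

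**Figure D5:**
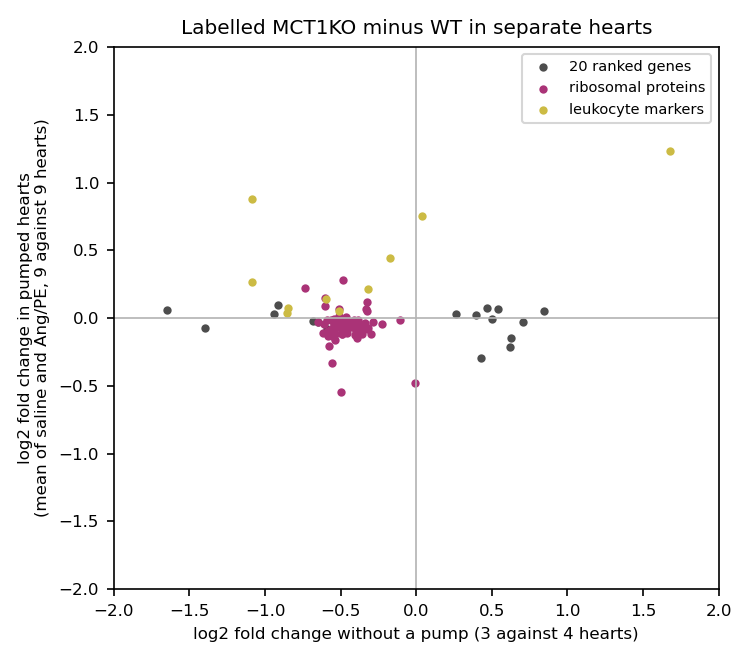
Log2 fold change, labelled MCT1KO minus WT, without a pump (x axis, 3 against 4 hearts) and in pumped hearts (y axis, mean of saline and Ang/PE, 9 against 9 hearts). Each point is a gene, the 20 ranked genes in grey, ribosomal protein genes in purple and leukocyte markers in yellow; ribosomal genes lie left of 0 on the x axis with a median of −0.48 and around −0.07 on the y axis.

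Abcb1a (ENSMUSG00000040584) was the 1 gene of 17682 (0.00566%) whose genotype difference without a pump differed from that in pumped hearts at an adjusted p below 0.05 in edgeR. It encodes P-glycoprotein, a pump that expels drugs and lipids from cells. Its level without a pump was 26.1, 28.1, 22.5 and 25.5 CPM in WT 1 to 4 and 34.1, 36.7 and 32.4 CPM in MCT1KO 1 to 3. All 3 hearts labelled MCT1KO were above all 4 WT hearts, with a log2 fold change of 0.43 (SE 0.0976). In the pumped hearts the value was −0.30 (SE 0.0634), made of −0.38 with saline and −0.21 with Ang/PE. The difference between the contrasts was 0.73 (SE 0.116), with an edgeR adjusted p of 0.0325. The call was lost with the replicate block (adjusted p = 0.0795), with the Xist covariate (0.0996), with the length and GC offsets (0.131) and when any heart but WT 2 was left out, where edgeR's adjusted p was at most 0.283. The size of the difference moved little, with 0.72, 0.76 and 0.70 in the first 3 of these settings and 0.67 to 0.77 when 1 heart was left out. The related gene Abcb1b can share its reads.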

How the data were processed

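RNA of mouse hearts was sequenced. The authors deposited 1 table of raw read counts per gene. The submitters' processing notes name cutadapt 1.16, STAR 2.7.9a, featureCounts 1.6.3, DESeq2 1.42.1 and build GRCm39, with no roles. The annotation release, strand setting and treatment of reads with several matches are not given in the sources used here. 0 columns were left unmatched. Of 56941 genes 51948 had a symbol, and those without hold 0.778% of counts.

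edgeR 4.0.16 in R 4.3.3 was run on the counts: filterByExpr by group (17682 genes), TMM, 1 model of 6 groups and 25 hearts (glmQLFit, robust, 19 residual degrees of freedom), glmQLFTest, two-sided, Benjamini-Hochberg over all tested genes, called at 0.05. CPM used TMM-scaled library sizes. SEs came from the F statistic. The script was tested on simulated counts, with 100 genes changed 2-fold and 100 changed 4-fold in MCT1KO without a pump. At an adjusted p below 0.05 edgeR recovered 49% and 84% of these, with 10 false calls. Lists are described by counts and medians. Lengths and GC content came from an annotation on GRCm38, found for 97.1% of tested genes. Start windows came from RefSeq.

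Genes were named by rule. The rule takes Slc16a1, then among non-overlapping genes with a symbol that is no predicted model and a mean log2 CPM above 1 the 10 of smallest p and the 5 of largest fold each way. It adds the top DESeq2 genes and, from each list, the first 3 genes and those of smallest p. Other members are named where a count needs them, chosen after their values were seen. The groups, lists and tests were chosen with earlier results of these data known.

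Alternatives were RLE, DESeq2 1.42.0, other filters, the 7 hearts alone, a replicate block, a non-robust fit, removal of mitochondrial or sex-linked genes, an Xist covariate, only hearts with Xist below 10 CPM, and leaving out each heart. Length and GC offsets (mgcv 1.9.3) and DESeq2 on the filtered genes were added after seeing the data. One gene of the sarcomere list is not reported here. Replicates of a group differed by more than sampling noise, so each counted once.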

Additional observations from a re-analysis of the deposited data

Results flagged for a closer look

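The genotype difference of Abcb1a without a pump exceeded that in pumped hearts by 0.726 on the log2 scale, in a test of the difference itself (edgeR adjusted p 0.0325).

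Among the 4 WT hearts, 1 heart stood apart from the other 3 by Dixon's criterion at 95% in 9 of the 157 named genes and 4 library measures examined. Chance flags about 1 in 20 such groups. On the scale of log2(CPM + 0.5), WT 1 was the lowest for Tet3 (5.58), C1qb (4.99), Sh3bgrl3 (3.58) and Cd163 (4.89). WT 2 was the lowest for Myl2 (12.1), Hspa1a (0.3) and Hsp90b1 (8.02). WT 3 was the highest for Tagln (4.06), and WT 4 for Dram2 (6.11). Of these genes, C1qb and Cd163 are macrophage genes, for which WT 1 was close to the hearts labelled MCT1KO.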

How the results depend on the processing

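Some values that passed no test changed sign. The median of the mitochondrially encoded genes went from −0.09 to 0.26 with the length and GC offsets and 0.03 without MCT1KO 3, that of the matrix list from −0.16 to 0.03 without MCT1KO 2, that of the fetal list from 0.53 to −0.03 without MCT1KO 3, and Nppa from 1.04 to −1.11 without MCT1KO 3 and −0.20 with the block in the 7 hearts. The count of genes called without a pump was 0 in every edgeR fit except 1 with the replicate block in the 7 hearts (Xist, adjusted p 0.0258) and 1 among hearts with Xist below 10 CPM (Gm48630, adjusted p 0.0298); DESeq2 called 31, and 24 on the filtered genes. At an unadjusted p below 0.05 the block in the 7 hearts gave 1338 genes, and leaving out 1 heart gave 1115 (without MCT1KO 2) to 2853, with 1207 without MCT1KO 3. In pumped hearts DESeq2 called 5 genes in either form. For the difference between the contrasts the filter-free fit called 2 (Abcb1a and Gm42583), DESeq2 7 in either form, and the replicate block, the Xist covariate and the length and GC offsets 0 each, and leaving out 1 heart gave 0 to 1. Only hearts with Xist below 10 CPM gave no such difference, since a pumped group lost all its hearts. The replicate block in all hearts left 0 genes called without a pump; same-numbered hearts of the 2 groups had correlations of deviations of −0.16, −0.06 and 0.21, so the numbers were not taken as pairs. The median of all genes stayed within −0.0136 and 0.00981. With 3 against 4 hearts, differences well under the spread between hearts could not be resolved, and in simulated counts many larger ones were missed too.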
